A study of Homo sapiens with 12 samples.

Results

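L1P1_5end and L1P1_orf2 are the 2 count models of the LINE-1 (L1) retrotransposon named L1P1 in strand-resolved tables of repeat RNA from THP-1 cells. They were taken by name from both deposited tables, with the plus and the minus column of each kept apart, which gave 4 features out of 90 (2 elements of 45), measured in 12 libraries. THP-1 is an established human cell line derived from acute myeloid leukaemia. The groups, read from the sample titles, were SETDB1 sgRNA 9 at day 7, non-targeting sgRNA at day 7, SETDB1 sgRNA 9 at day 4 and non-targeting sgRNA at day 4, with 3 libraries each. All cells were spin-transduced with their guide and selected in 1 µg/ml puromycin from 48 h on, and 100 ng of total RNA went into each stranded library. The design text lists SETDB1 sgRNAs 6 and 9, whereas every SETDB1 title reads sgRNA 9, so the guide of single SETDB1 libraries rests on their titles. The labels name replicates without saying that they were separate cultures, so the p-values cover a spread that may be technical, and they do not say whether cells were pools or clones. The tables hold repeats only, so neither SETDB1 nor any marker of the line was analysed here.

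A full-length L1 carries an internal promoter in its 5′ end, then ORF1, which encodes an RNA-binding protein, and ORF2, which encodes the endonuclease and reverse transcriptase that copy the element into new sites. Most genomic copies lack their 5′ end and have lost the promoter, so reads on ORF2 or on the 3′ end can come from many fragments inside other transcripts, while the 5′ end lies in fewer copies and also holds an antisense promoter. SETDB1 places H3K9 methylation, a silencing mark, on repeats. The stated purpose of the experiment was to look for transcription of transposable elements in both directions after SETDB1 depletion.

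L1P1_orf2 had the most counts of the 45 elements in every group. It took 34.6%, 36.6% and 37.4% of the table counts in the SETDB1 libraries of day 7, against 34.0%, 32.3% and 30.7% in the non-targeting libraries of that day. At day 4 it took 37.4%, 39.9% and 40.3% in the SETDB1 libraries and 34.2%, 35.2% and 32.5% in the non-targeting ones. The SETDB1 libraries lay above the non-targeting ones at both days, which was so for 46.2% of the 39 tested elements at day 7 and 20.5% at day 4. In bulk RNA, a change in the number of cells with these transcripts and a change in the amount per cell cannot be told apart.

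L1P1_5end was number 3 of 45 in abundance, or number 5 in the non-targeting cells of day 7. Its part of the table was 7.93%, 7.52% and 6.64% in the SETDB1 libraries of day 7, against 4.99%, 5.84% and 5.33% in the non-targeting libraries. At day 4 it was 7.26%, 8.05% and 8.53% with SETDB1 sgRNA 9 and 5.71%, 8.14% and 5.48% with the non-targeting sgRNA, so that the groups overlapped through non-targeting replicate 2. The sources used here give no model lengths, so counts of the 5′ end and ORF2 are not levels per length and say nothing of how many copies of each region were transcribed.

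The table totals ranged from 27388 to 58916 counts and were higher with SETDB1 sgRNA 9, at 49914 ± 9993 against 34796 ± 7531 at day 7 and 50619 ± 7207 against 30587 ± 4110 at day 4 (SD, n = 3). The sources used here give no depth outside the table. The levels below are therefore counts per 1000000 table counts (CPM) after TMM scaling, and a change is relative to the other elements. Replicates of 2 groups stood apart in strand use: the minus strand held less of both models in SETDB1 day 4 replicate 1 than in the other two libraries of its group, and more in non-targeting day 4 replicate 2. Several values below are also given without 1 of these libraries.

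At day 7 the plus strand of ORF2 rose most among the 4 features and the minus strand did not pass the test. L1P1_orf2 plus strand stood at 62816, 83479 and 83515 CPM in the SETDB1 libraries, against 43501, 40158 and 37245 CPM in the non-targeting libraries. The groups did not overlap. The fitted change was 1.90-fold (log2 change 0.93 ± 0.14, SE; Benjamini-Hochberg adjusted p = 2.19e-06 in the edgeR test), and it passed without any single library. L1P1_orf2 minus strand stood at 265724, 267205 and 293910 CPM with SETDB1 sgRNA 9 and at 328360, 288733 and 261317 CPM with the non-targeting sgRNA, so the groups overlapped. Its log2 change was -0.09 (95% interval -0.34 to 0.17, edgeR adjusted p = 0.605), but -0.31 when the 2 groups of day 7 were fitted alone, which passed as lower (edgeR adjusted p = 0.0013).

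At the 5′ end of the element both strands lay higher at day 7. L1P1_5end plus strand had 25758, 26945 and 24072 CPM in the SETDB1 libraries, against 18850, 20491 and 18232 CPM in the non-targeting libraries. The groups did not overlap, and the strand rose 1.33-fold (log2 0.41 ± 0.12, SE; edgeR adjusted p = 0.00538). L1P1_5end minus strand had 49592, 45053 and 42916 CPM with SETDB1 sgRNA 9, against 35765, 38951 and 33556 CPM with the non-targeting sgRNA. The groups did not overlap here either, but the log2 change of 0.34 ± 0.16 missed the threshold (SE; edgeR adjusted p = 0.0625). It passed without any of 4 single libraries, SETDB1 day 4 replicate 1, non-targeting day 4 replicates 1 and 3 and SETDB1 day 7 replicate 3 (0.34 to 0.39). The call of the plus strand was lost without SETDB1 day 7 replicate 2 and without non-targeting day 4 replicate 2, and when the groups of day 7 were fitted alone (0.19, edgeR adjusted p = 0.136). In all, 2 of the 4 features rose and 0 fell, beside 55.7% of the 70 tested features called in either direction, 21 higher and 18 lower. Groups without overlap, SETDB1 higher, were found for 3 of the 4 and for 31.4% of the 70.

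**Figure D1:**
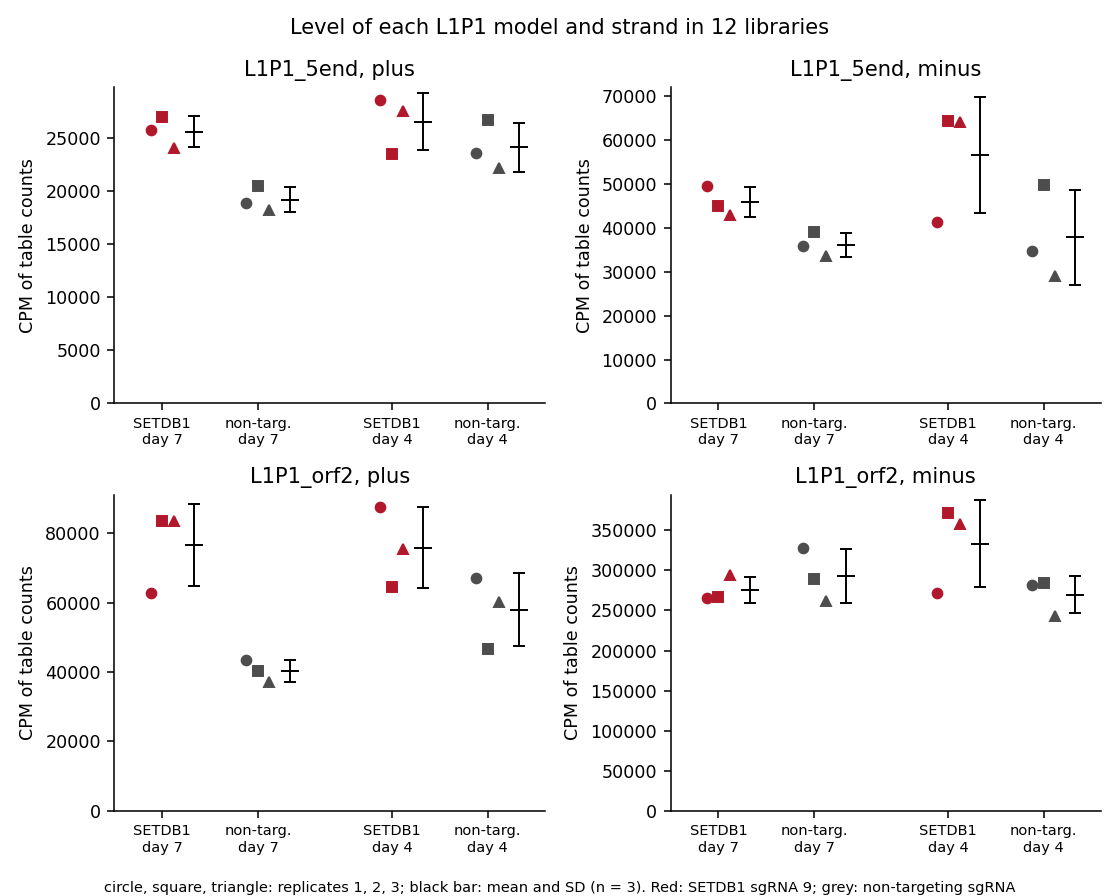
Levels of the 4 features in CPM of table counts (vertical axes from 0) by group, with a point per library and the mean and SD of 3 beside it. SETDB1 libraries lie above the non-targeting ones for 3 features at day 7, and all 4 features overlap at day 4.

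At day 4 the strand that passed most clearly was the other one at the 5′ end. L1P1_5end minus strand had 41253, 64389 and 64106 CPM in the SETDB1 libraries, against 34633, 49833 and 28968 CPM in the non-targeting libraries. SETDB1 replicate 1 lay below non-targeting replicate 2, so the groups overlapped. The fitted log2 change was 0.58 ± 0.16 (SE; edgeR adjusted p = 0.00584). It was 0.76 without SETDB1 replicate 1 and 0.83 without non-targeting replicate 2 (edgeR adjusted p = 0.000214 and 5.35e-06), and the call was lost without SETDB1 replicate 2 or 3 or non-targeting replicate 1 or 3 of that day (log2 0.38 to 0.48). L1P1_5end plus strand had 28523, 23460 and 27549 CPM with SETDB1 sgRNA 9 and 23541, 26632 and 22164 CPM with the non-targeting sgRNA. These overlapped, and the log2 change of 0.14 ± 0.12 did not pass (SE; edgeR adjusted p = 0.464), nor did it without SETDB1 day 4 replicate 1 (0.08) or non-targeting day 4 replicate 2 (0.22, edgeR adjusted p = 0.802 and 0.316).

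At day 4 the plus strand of ORF2 passed the test and its minus strand did not. L1P1_orf2 plus strand had 87695, 64508 and 75428 CPM in the SETDB1 libraries, against 67099, 46565 and 60261 CPM in the non-targeting libraries. The groups overlapped in a single pair of libraries, and the 1.31-fold change was just past the threshold (log2 0.39 ± 0.14, SE; edgeR adjusted p = 0.0402). Without SETDB1 day 4 replicate 1 it was 0.27, and without non-targeting day 4 replicate 2 it was 0.26, neither of which passed; the call was also lost without any of 5 other libraries. L1P1_orf2 minus strand had 271728, 371195 and 357340 CPM with SETDB1 sgRNA 9, against 281394, 284292 and 242795 CPM with the non-targeting sgRNA. SETDB1 replicate 1 fell within the non-targeting range, and the log2 change of 0.31 ± 0.13 did not pass (SE; edgeR adjusted p = 0.075). It was 0.43 without that library and 0.35 without non-targeting day 4 replicate 2, and both passed (edgeR adjusted p = 0.00307 and 0.042). These libraries were picked by their minus strand share, so leaving them out favours a larger change. In 10 of 12 deletions of a single library the change did not pass. Fitted on the groups of day 4 alone, neither L1P1_5end minus strand (0.55) nor L1P1_orf2 plus strand (0.35) passed (edgeR adjusted p = 0.123 and 0.252). Again 2 of the 4 features rose and 0 fell, beside 24.3% of the 70 called in either direction, 11 higher and 6 lower. Groups without overlap, SETDB1 higher, were found for 0 of the 4 and for 11.4% of the 70.

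The effect of SETDB1 sgRNA 9 was compared between the days as a difference of differences. Day 7 over day 4, L1P1_orf2 plus strand changed by 0.01 in SETDB1 cells and by -0.52 in non-targeting cells (log2). Its minus strand changed by -0.27 in SETDB1 cells and by 0.12 in non-targeting cells. The difference of the SETDB1 effect on L1P1_orf2 was thus 0.54 ± 0.20 on the plus strand and -0.39 ± 0.18 on the minus strand (log2, SE). Neither passed (edgeR interaction, adjusted p = 0.0923 and 0.16), but without SETDB1 day 4 replicate 1 the values were 0.66 and -0.52 and without non-targeting day 4 replicate 2 they were 0.54 and -0.55, all past the threshold (edgeR adjusted p between 0.0208 and 0.049). The plus strand also passed without SETDB1 day 7 replicate 1 (0.69, edgeR adjusted p = 0.0189). The 2 day 4 libraries were picked by their minus strand share in these data. Leaving either of them out favours a larger minus strand difference. In 10 of 12 deletions of a single library the L1P1_orf2 minus strand difference did not pass. For L1P1_5end the differences were 0.28 ± 0.17 on the plus strand and -0.24 ± 0.22 on the minus strand (SE; edgeR adjusted p = 0.292 and 0.495), the minus strand passing without non-targeting day 4 replicate 2 (-0.59, edgeR adjusted p = 0.0424). Without that library the plus strand difference was 0.08, and over all libraries left out in turn it ranged from 0.08 to 0.39 and never passed. Thus 0 of the 4 features were called, beside 5.71% of all features, and 2 of the 4 had an unadjusted p under 0.05, beside 24.3% of all. In both models the plus strands lay above 0 and the minus strands below, with 0 of these values called. By minus strand share, the same difference between the days was above 0 for 15 of the 39 tested elements, with a median of -0.10. Whether the split exceeds such a common shift was not tested.

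Scaling sets the size of all these values. The median change of all 70 features was 0.16 at day 7 and 0.04 at day 4 with TMM, but 0.76 and 0.65 with unscaled counts. In unscaled counts L1P1_orf2 plus strand changed by 1.55 and L1P1_5end plus strand by 1.02 at day 7, and L1P1_orf2 minus strand turned to 0.51 without passing (edgeR adjusted p = 0.122). The order of the 4 features at day 7 was the same. Scaling shifts all features of a day by nearly the same amount, so this order is not a test of the result. Scaling to the other 43 elements alone gave 0.93 for L1P1_orf2 plus strand at day 7 and 0.64 for L1P1_5end minus strand at day 4, both past the threshold.

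**Figure D2:**
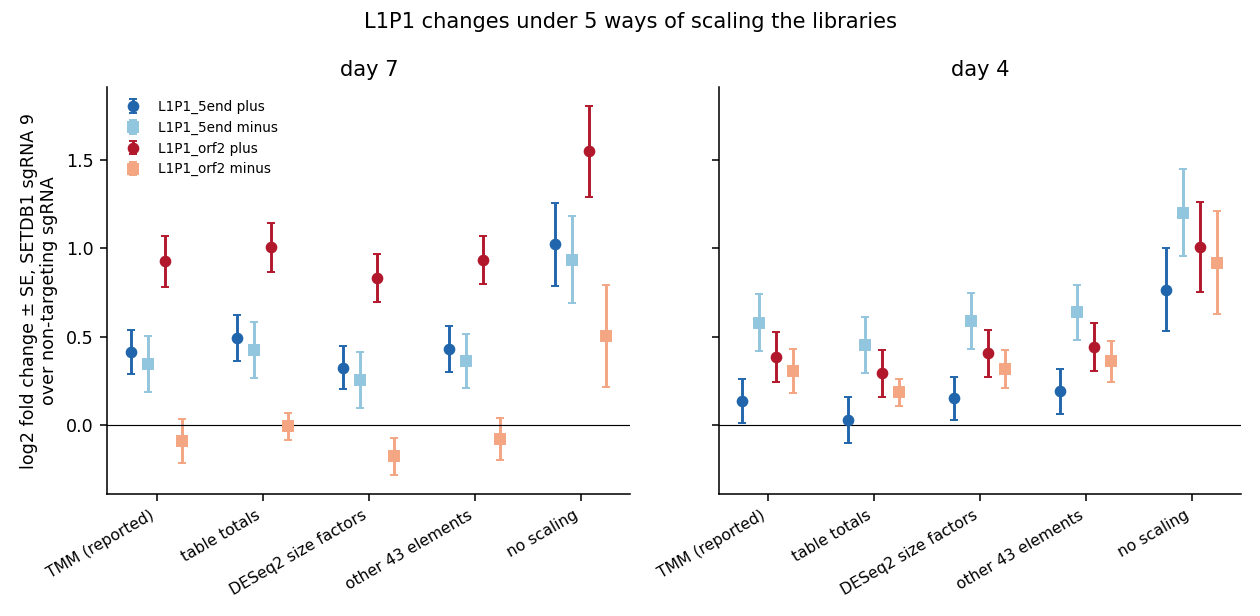
Log2 fold change (SETDB1 sgRNA 9 over non-targeting sgRNA, ± SE) of the 4 features at day 7 and day 4 under 5 ways of scaling. L1P1_orf2 plus strand is the highest at day 7 in each of them and L1P1_5end minus strand the highest at day 4, an order that scaling hardly affects. L1P1_orf2 minus strand at day 7 is -0.09 with TMM and 0.51 without scaling.

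The minus strand carried most counts of both models in every library, and more so for ORF2. The sources used here do not say which strand is sense to the element. In the same library the log2 odds of the minus strand were lower for L1P1_5end than for L1P1_orf2 (mean difference -1.41 ± 0.41, SD over 12 libraries; two-sided exact sign-flip permutation p = 0.000488, the smallest 12 libraries allow). The difference ran this way in 12 of 12 libraries and amounted to -18.1 ± 4.5 percentage points of minus strand share. L1P1_orf2 ranked 7 to 9 of 39 elements by minus strand share, and L1P1_5end 16 to 21. The median share of the 16 other tested L1 models lay between 64.3% and 67.1% in the 4 groups, close to that of L1P1_5end.

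At day 7 L1P1_orf2 had a lower minus strand share with SETDB1 sgRNA 9 than with the non-targeting sgRNA. From day 4 to day 7 its log2 odds changed by -0.28 in SETDB1 cells, which did not pass, and by 0.63 in non-targeting cells. Its share was 80.9%, 76.2% and 77.9% in the SETDB1 libraries and 88.3%, 87.8% and 87.5% in the non-targeting libraries. The groups were far apart, with a log2 odds change of -1.001 ± 0.188 (SE; edgeR with a library block, adjusted p = 6.67e-06), and the call held without any single library. At the same day L1P1_5end had a share of 65.8%, 62.6% and 64.1% with SETDB1 sgRNA 9 and 65.5%, 65.5% and 64.8% with the non-targeting sgRNA. Its change of -0.07 did not pass (95% interval -0.40 to 0.26, edgeR adjusted p = 0.759). So 1 of the 2 models was lower in share, beside 25.6% of the 39 elements. The median element itself changed by -0.42, and the other 43 elements together had a minus strand share of 65.2% ± 1.1 in the SETDB1 libraries and 68.6% ± 0.5 in the non-targeting libraries (SD, n = 3). With strands scaled to the typical element, in an alternative chosen after the values were seen, L1P1_orf2 changed by -0.34, which did not pass (edgeR adjusted p = 0.171), and L1P1_5end by 0.59, which did (adjusted p = 0.00355).

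At day 4 the 5′ end was the model with the larger difference in share. L1P1_5end had 59.1%, 73.3% and 69.9% of its counts on the minus strand in the SETDB1 libraries and 59.5%, 65.2% and 56.7% in the non-targeting libraries. The groups overlapped, and the log2 odds change of 0.45 ± 0.17 just missed the threshold (SE; edgeR adjusted p = 0.0574). It was 0.71 without SETDB1 day 4 replicate 1 and 0.60 without non-targeting day 4 replicate 2, and both passed (edgeR adjusted p = 2.15e-05 and 0.0146). These libraries stood apart in this same share, so leaving them out favours a larger change. In 10 of 12 deletions of a single library the change did not pass, and it was as low as 0.26. L1P1_orf2 had 75.6%, 85.2% and 82.6% with SETDB1 sgRNA 9 and 80.7%, 85.9% and 80.1% with the non-targeting sgRNA, a change of -0.09 that did not pass (edgeR adjusted p = 0.801) and that turned to 0.16 without SETDB1 day 4 replicate 1 and to 0.09 without non-targeting day 4 replicate 2. Of the 2 models 0 were called at day 4, beside 12.8% of the 39 elements.

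**Figure D3:**
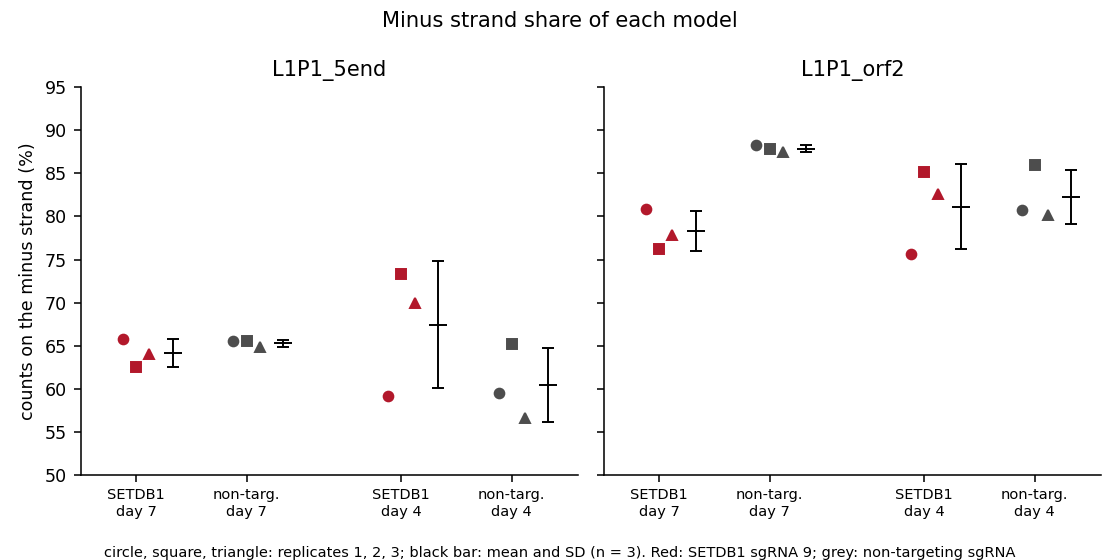
Percent of counts on the minus strand for each model (the vertical axis does not start at 0), with a point per library and the mean and SD of 3 beside it. L1P1_orf2 lies at 76.2% to 80.9% with SETDB1 sgRNA 9 at day 7, against 87.5% to 88.3% in the non-targeting libraries, while L1P1_5end overlaps. At day 4 the non-targeting libraries lie at 80.1% to 85.9% for L1P1_orf2.

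Strand use varied from library to library in both models together. In 3 of the 4 groups the replicates ranked the same way by minus strand share for L1P1_5end, for L1P1_orf2 and for the other 43 elements summed. The exception was the non-targeting group of day 7, where the 3 shares of each model lay within 1 percentage point. The part of such a common shift in the change of a single model was not tested. A shift that is equal for both models on the log2 odds scale drops out of the difference between them.

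Ratios of one model to the other in the same library need no scaling between libraries. On the plus strand L1P1_5end had 0.410, 0.323 and 0.288 counts per L1P1_orf2 count in the SETDB1 libraries of day 7, against 0.433, 0.510 and 0.490 in the non-targeting libraries. On the minus strand it had 0.187, 0.169 and 0.146 with SETDB1 sgRNA 9, against 0.109, 0.135 and 0.128 with the non-targeting sgRNA. The groups separated on both strands, in opposite directions. The ratio of an element to L1P1_orf2 was lower without overlap on the plus strand for 55.9% of 34 tested elements and higher without overlap on the minus strand for 32.4% of 34, L1P1_5end included, with median log2 differences of -0.69 and 0.13. The plus strand ratio was lower by a log2 difference of -0.50 and the minus strand ratio higher by 0.43 (two-sided exact permutation p = 0.1 for each, the smallest that 3 against 3 allows).

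At day 4 the ratios overlapped between the groups. The plus strand ratio was 0.325, 0.364 and 0.365 in the SETDB1 libraries, against 0.351, 0.572 and 0.368 in the non-targeting libraries, a log2 difference of -0.26 (two-sided exact permutation p = 0.4) that was -0.0341 without non-targeting replicate 2 and -0.20 without SETDB1 replicate 1. The minus strand ratio was 0.152, 0.173 and 0.179 with SETDB1 sgRNA 9, against 0.123, 0.175 and 0.119 with the non-targeting sgRNA, a log2 difference of 0.29 (two-sided exact permutation p = 0.3) that was 0.47 and 0.36 without the same libraries. Non-targeting replicate 2 had the highest plus strand ratio of all 12 libraries. Over both days, with labels permuted within days, the differences were -0.38 and 0.36 (exact permutation p = 0.02 and 0.025, adjusted 0.1 for each over 12 tests of such ratios), and the plus strand value was -0.27 without non-targeting day 4 replicate 2. The minus strand difference passed without non-targeting day 4 replicate 2 (0.45, adjusted p = 0.03) and the plus strand difference without non-targeting day 4 replicate 1 (-0.44, adjusted p = 0.03, exact permutation). With the strands summed, the ratio of the 5′ end to ORF2 differed by 0.20 (exact permutation p = 0.085, adjusted 0.15).

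The difference between the strands' ratios, which equals the difference between the models in log2 strand odds, separated the guides at both days. It was -1.14, -0.94 and -0.98 in the SETDB1 libraries of day 7, against -1.99, -1.92 and -1.93 in the non-targeting libraries. At day 4 it was -1.10, -1.07 and -1.03 with SETDB1 sgRNA 9, against -1.51, -1.71 and -1.62 with the non-targeting sgRNA. All 6 SETDB1 libraries lay above all 6 non-targeting ones, with means of -1.04 ± 0.07 and -1.78 ± 0.19 (SD, n = 6). The models thus stood closer in strand use with SETDB1 sgRNA 9, by 0.93 at day 7 and 0.55 at day 4. Over both days the difference was 0.74 (two-sided exact permutation p = 0.005, the smallest this design allows, or 0.06 after adjustment over the 12 tests). It stayed between 0.72 and 0.77 without any single library. Over 12 tests a p of 0.005 gives an adjusted 0.06 unless other tests are also low, so this difference could not pass alone. With single libraries left out, its adjusted p lay between 0.03 and 0.06 (exact permutation). The value of 0.03 came without non-targeting day 4 replicate 1 or 2. There a ratio on a single strand also had 0.03, the plus strand without replicate 1 and the minus strand without replicate 2. The 0.03 is therefore not separate evidence for this difference.

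**Figure D4:**
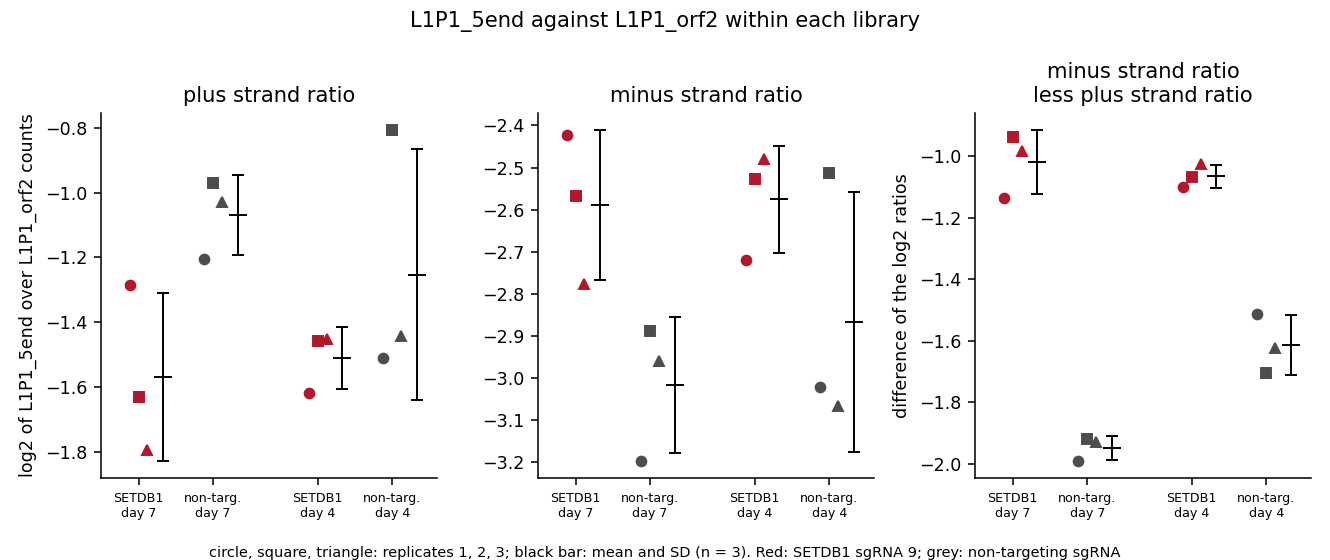
Log2 ratio of L1P1_5end to L1P1_orf2 counts (pseudocount 0.5) on the plus strand, on the minus strand, and the minus strand ratio less the plus strand ratio, with a point per library and the mean and SD of 3 beside it. In the right panel the SETDB1 libraries lie between -1.14 and -0.94 and the non-targeting ones between -1.99 and -1.51.

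The same subtraction was made for all 38 other elements tested against L1P1_orf2, as a background. At day 7 the SETDB1 libraries lay wholly above the non-targeting ones for 52.6% of them, with a median difference of 0.59, and 14 of the 38, L1P1_5end included, differed by at least as much as L1P1_5end. At day 4 it was so for 13.2% of them, with a median of -0.21, and 5 of the 38 reached the difference of L1P1_5end. Elements separated upward at both days made up 13.2%, 5 of 38 with L1P1_5end among them. Taken against L1P1_5end instead, 42.1% of 38 elements lay wholly lower with SETDB1 sgRNA 9 at day 7 and 36.8% at day 4.

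Day 7 was then compared with day 4 within each guide, a comparison in which time cannot be told apart from anything else that differed between the days. In the non-targeting cells L1P1_orf2 plus strand averaged 40301 ± 3131 CPM at day 7 and 57975 ± 10456 CPM at day 4 (SD, n = 3), a log2 change of -0.52 ± 0.14 (SE; edgeR adjusted p = 0.0271). Its minus strand share was higher by 0.63 ± 0.19 on the log2 odds scale, at 87.9% ± 0.4 at day 7 and 82.3% ± 3.2 at day 4 (edgeR adjusted p = 0.0245), a call lost without non-targeting replicate 1 or 3 of day 4 or replicate 1 or 2 of day 7 (0.52 to 0.64). That share call was also lost with limma on the log2 ratio (0.63, adjusted p = 0.22), with a replicate block in edgeR (0.63, adjusted p = 0.064) and relative to the typical element (0.29, edgeR adjusted p = 0.485). L1P1_5end plus strand had a change of -0.33 ± 0.12 that did not pass although the groups did not overlap (edgeR adjusted p = 0.127), and the minus strands of both models did not pass (-0.07 and 0.12, adjusted p = 0.913 and 0.774). Thus 1 of the 4 features fell, beside 2.86% of all features, and 2 of the 4 lay lower without overlap, beside 7.14%, and 1 of the 2 models gained minus strand share, beside 7.69% of elements. The call of L1P1_orf2 plus strand was lost without non-targeting replicate 1 or 3 of day 4 or any of the 3 non-targeting libraries of day 7 (log2 -0.58 to -0.46). It was also lost in unscaled counts (-0.43, edgeR adjusted p = 0.63).

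In the SETDB1 cells 0 of the 4 features changed between the days, beside 12.9% of all features. The log2 changes, day 7 over day 4, were 0.01 for L1P1_orf2 plus strand, -0.27 for its minus strand, -0.05 for L1P1_5end plus strand and -0.30 for its minus strand (edgeR adjusted p = 0.933, 0.134, 0.788 and 0.183). Of the 2 models 0 changed in minus strand share, beside 20.5% of elements, with log2 odds changes of -0.23 for L1P1_5end and -0.28 for L1P1_orf2 (edgeR adjusted p = 0.364 for each). Without SETDB1 day 4 replicate 1, which had the lowest minus strand share of its group, these were -0.50 and -0.53. Both then passed (edgeR adjusted p = 0.00477 for each). In 11 of 12 deletions of a single library they did not pass, and they came as near to zero as -0.0393 and -0.0811. Leaving out SETDB1 day 4 replicate 1 or non-targeting day 4 replicate 2 brought both minus strand levels past the threshold, between -0.49 and -0.40. These libraries were picked by their minus strand share. Each level did not pass in 10 of 12 deletions of a single library.

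The SETDB1 effect on the minus strand share of L1P1_orf2 differed between the days by -0.91 ± 0.27 on the log2 odds scale (SE; edgeR adjusted p = 0.0194), among the 5.13% of elements called. That of L1P1_5end differed by -0.52 ± 0.24 and did not pass (SE; edgeR adjusted p = 0.187). The L1P1_orf2 value was lost as a call with the strands scaled to the typical element (-0.503, edgeR adjusted p = 0.359) and without any of 6 single libraries, namely replicates 2 and 3 of the SETDB1 cells and 1 and 3 of the non-targeting cells at day 4, SETDB1 day 7 replicate 2 and non-targeting day 7 replicate 1 (-0.88 to -0.71). That of L1P1_5end passed without SETDB1 day 4 replicate 1 (-0.79, edgeR adjusted p = 0.00117), the library with the lowest share of its group. In 11 of 12 deletions of a single library it did not pass.

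Other L1 models were counted by the end their names give. Of 21 features of other L1 5′ ends at day 7, 4 were higher and 1 lower with SETDB1 sgRNA 9, with a median log2 change of 0.27. Of 10 features of L1 3′ ends, 1 was higher and 6 were lower, with a median of -0.44, beside a median of 0.16 for all 70. Higher ones included L1PBb_5end plus strand (1.27 ± 0.41), L1PBa_5end plus strand (0.71 ± 0.14) and L1PBa1_5end minus strand (0.47 ± 0.16; log2, SE). L1PBb_5end plus strand stood at a low level, 491 ± 202 CPM with SETDB1 sgRNA 9 and 195 ± 32 CPM with the non-targeting sgRNA (SD, n = 3). Lower ones included L1PA12_3end minus strand (-0.80 ± 0.12), L1PA5_3end minus strand (-0.61 ± 0.12) and L1M4b_5end minus strand (-0.56 ± 0.20; log2, SE). The groups of L1M4b_5end minus strand overlapped. At day 4 the 5′ end features had 3 higher and 0 lower with a median of 0.11, and the 3′ end features had 0 calls with a median of -0.12. L1PBa_5end plus strand (0.89 ± 0.14), L1PA12_5end minus strand (0.54 ± 0.17) and L1PA10_5end minus strand (0.40 ± 0.14) were the higher ones (log2, SE; all edgeR adjusted p under the 0.05 threshold). Both minus strand features overlapped between the groups. Related L1 models may share sequence with L1P1, but the sources used here give no model sequences. They also do not say how reads were divided between the models.

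**Figure D5:**
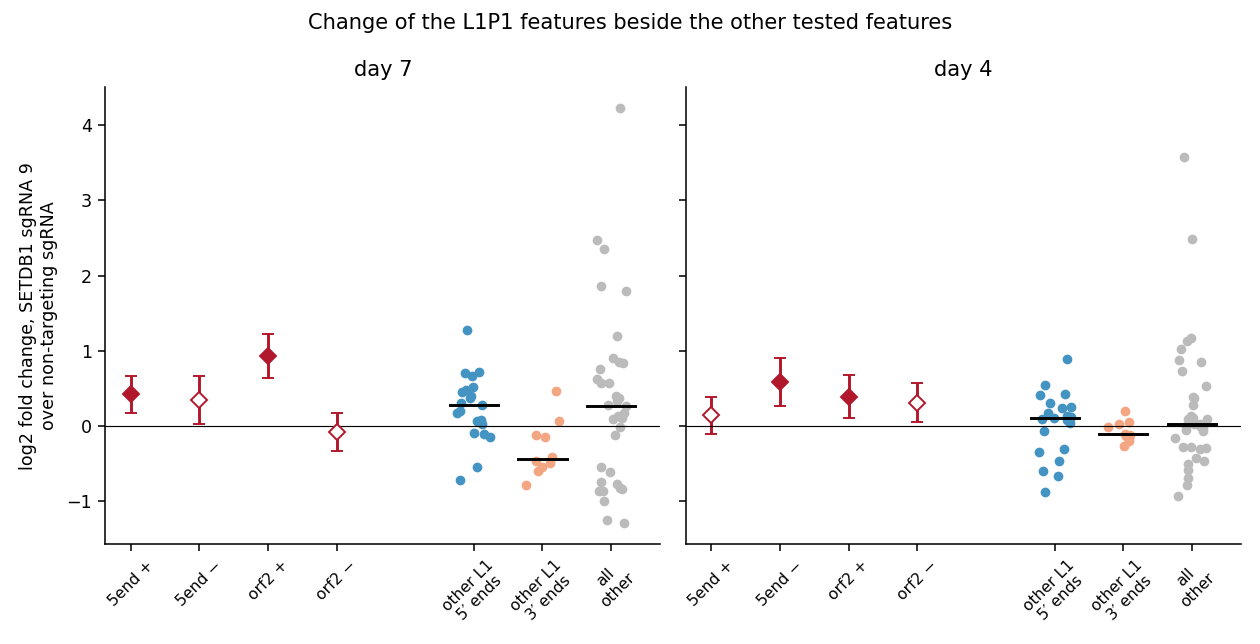
Log2 fold change (SETDB1 sgRNA 9 over non-targeting sgRNA) at day 7 and day 4, with 95% intervals for the 4 L1P1 features (filled where the adjusted p passed 0.05) and a point per feature with a median bar for other L1 5′ ends, other L1 3′ ends and the remaining features. At day 7 the medians of other L1 5′ and 3′ ends are 0.27 and -0.44, with L1P1_orf2 plus strand at 0.93.

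By pattern over the 12 libraries, the nearest feature to each of the 4 was another L1 5′ end, a class that held 21 of the 66 candidates. HERV3 plus strand was among the nearest of every feature except L1P1_orf2 minus strand. Likeness was the root mean square difference of mean-centred log2 CPM, and is a description only, since all features share libraries and scaling. For L1P1_5end minus strand the nearest were L1PA12_5end and L1PA10_5end minus strands (0.157 and 0.158), then HERV3 plus strand (0.272), where the median of the 66 other features was 0.477. For L1P1_5end plus strand they were L1PA10_5end plus strand (0.169), HERV3 plus strand (0.194) and THE1C plus strand (0.203). For L1P1_orf2 minus strand they were L1PBa_5end minus strand (0.153), L1PA10_5end minus strand (0.196) and L1PA10_3end plus strand (0.206). For L1P1_orf2 plus strand they were the plus strands of L1PA10_5end (0.255), L1PBa_5end (0.283) and HERV3 (0.309). Its own spread, given next, was the largest of the 4 features and exceeded all of these values. They therefore cannot be ranked against those of the other features. A feature's own spread around its mean on this scale was 0.342 for L1P1_5end minus strand, 0.204 for its plus strand, 0.414 for L1P1_orf2 plus strand and 0.178 for its minus strand, so 2 of the 3 neighbours of L1P1_orf2 minus strand were no closer to it than a flat line would be. The neighbours of L1P1_5end plus strand, at 0.169 to 0.203, lay just under the 0.204 of a flat line. The strands of L1P1_orf2 lay 0.44 apart and those of L1P1_5end 0.28 apart.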

How the data were processed

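Strand-resolved counts of 45 repeat elements in 12 total RNA libraries were used as deposited by the authors, whole-number counts per element and strand with no normalization, in a table per day. Headings that repeat the sample descriptions tied the 24 columns to samples (0 columns of other samples). CASAVA 1.8, BWA and HTSeq stand in the submitters' processing notes with no role stated. The sources used here do not give the genome build, the repeat models with their lengths and sequences, how the 45 elements were chosen, or the handling of reads with several matches. Related L1 models may share sequence, and their counts would be uncertain to that extent.

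Members and lists were chosen with earlier results of these data known. The strands of an element were treated as separate features. edgeR 4.0.16 (R 4.3.3) kept 70 of 90 features, among them the 4 of L1P1 (filterByExpr, minimum count 10, minimum total 15), scaled table totals by TMM, and fitted 4 groups in one quasi-likelihood model (8 residual degrees of freedom), with Benjamini-Hochberg adjustment over 70 features and a threshold of 0.05. The minus strand share was fitted over 39 elements with both strands of a library as columns and a library block; its contrasts between days were read from the same fit. Ratios between the models used a pseudocount of 0.5 and exact permutation. Programs were tested on simulated data. Pairs of replicates differed by more than sampling noise (largest chi-square p = 9.82e-05 over 12 pairs), and all 12 libraries were kept. The named features followed a rule: the 4 L1P1 features, up to 3 called features per direction and day among other L1 models, and the 3 features most alike to each member. Replicate numbers are shared between groups but are not stated to pair the samples. DESeq2 1.42.0 and limma 3.58.1 served as alternatives.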

Additional observations from a re-analysis of the deposited data

Results flagged for a closer look

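The SETDB1 effect on the minus strand share of L1P1_orf2 differed between the days by a tested interaction, -0.91 on the log2 odds scale (edgeR adjusted p = 0.0194). The effect itself was -1.001 at day 7 and -0.09 at day 4. Groups of 3 libraries were not formally screened for single libraries far from the others. SETDB1 day 4 replicate 1 and non-targeting day 4 replicate 2 were, however, singled out above by their minus strand share. The difference was no longer called with limma on the log2 ratio (adjusted p = 0.255), with a replicate block in edgeR (adjusted p = 0.0534), relative to the typical element (-0.503, edgeR adjusted p = 0.359) or without any of 6 of the 12 libraries.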

How the results depend on the processing

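Of the values of the 2 models, 202 of 247 under other settings and 453 of 516 without a library had the same direction and side of the threshold as reported; the cause of the changes below was not tested. Values are log2 changes. Without scaling, L1P1_5end plus strand (0.77) and L1P1_orf2 minus strand (0.92) at day 4 and L1P1_5end minus strand at day 7 (0.94) passed, L1P1_orf2 minus strand at day 7 turned to 0.51, and between the days L1P1_5end turned to 0.018 on the plus strand in SETDB1 cells and to 0.0287 on the minus strand in non-targeting cells, where L1P1_orf2 plus strand was lost (-0.43). With table totals, L1P1_orf2 plus strand at day 4 was lost (0.29), while L1P1_5end minus strand at day 7 (0.43) and the difference between the days for L1P1_orf2 plus strand (0.71) passed, and L1P1_5end plus strand in SETDB1 cells turned to 0.0419. With DESeq2 size factors in edgeR or the DESeq2 Wald test, L1P1_orf2 minus strand passed at day 4 (0.32), in its difference between the days (-0.49) and between the days in SETDB1 cells (-0.32), where its plus strand turned to -0.0449 and -0.045. Scaled to the other 43 elements, L1P1_orf2 minus strand at day 4 (0.36) and in SETDB1 cells between the days (-0.35) and L1P1_5end minus strand at day 7 (0.36) passed, and L1P1_orf2 plus strand in SETDB1 cells turned to -0.0641. With no low count filter, L1P1_orf2 plus strand at day 4 (0.34), L1P1_5end plus strand at day 7 (0.24) and L1P1_orf2 plus strand over time in non-targeting cells (-0.39) were lost. The difference between the days for L1P1_orf2 minus strand (-0.53) and the day 4 share of L1P1_5end (0.45) then passed, and L1P1_5end minus strand over time in non-targeting cells turned to 0.0848. Fitted on the groups compared alone, L1P1_5end minus strand (0.55) and L1P1_orf2 plus strand (0.35) at day 4 and L1P1_5end plus strand at day 7 (0.19) were lost, and L1P1_orf2 minus strand at day 7 passed as lower (-0.31); that fit could not be made for the difference between the days.

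For minus strand shares relative to the typical element, chosen after seeing the data, L1P1_5end turned to 0.59 at day 7 and passed at day 4 (0.70), L1P1_orf2 turned to 0.16 at day 4, and its calls at day 7 (-0.34), between the days (-0.50) and over time in non-targeting cells (0.29) were lost; L1P1_5end over time in those cells turned to -0.0449. With limma on the log2 ratio, L1P1_orf2 lost its difference between the days (-0.90) and its change over time in non-targeting cells (0.63). No pairing by replicate number was seen: same-numbered libraries correlated by -0.13 to 0.28 and 2 of 6 pairs had their best match in their own number. With so few libraries per group, this check cannot exclude pairing. With a replicate block, L1P1_5end minus strand passed at day 7 (0.35), and L1P1_orf2 lost the share difference between the days (-0.91) and its share change in non-targeting cells (0.63); no other call of the 2 models changed. The block gave 1 feature higher over time in non-targeting cells (reported 2) and 2 lower in SETDB1 cells (reported 1), and by share 0 elements lower between the days (reported 1) and 0 higher in non-targeting cells (reported 3).

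Without any single library, the SETDB1 changes at day 7 ranged from 0.30 to 0.48 for L1P1_5end plus strand, 0.24 to 0.41 for its minus strand and -0.21 to 0.00304 for L1P1_orf2 minus strand. At day 4 they ranged from 0.0439 to 0.22 for L1P1_5end plus strand, 0.38 to 0.83 for L1P1_5end minus strand, 0.26 to 0.49 for L1P1_orf2 plus strand and 0.20 to 0.43 for its minus strand. The differences between the days ranged from 0.0838 to 0.39 for L1P1_5end plus strand, -0.59 to -0.0233 for L1P1_5end minus strand, 0.40 to 0.69 for L1P1_orf2 plus strand and -0.55 to -0.27 for its minus strand. Over time in SETDB1 cells the ranges were -0.21 to 0.00399 and -0.49 to -0.20 for the plus and minus strands of L1P1_5end, and -0.17 to 0.15 and -0.43 to -0.19 for those of L1P1_orf2. In non-targeting cells they were -0.25 to 0.14 for L1P1_5end minus strand and -0.70 to -0.46 for L1P1_orf2 plus strand. The share changes ranged from 0.26 to 0.71 for L1P1_5end and -0.29 to 0.16 for L1P1_orf2 at day 4, and their differences between the days from -0.79 to -0.33 and from -1.16 to -0.71. Over time the shares ranged from -0.50 to -0.0393 for L1P1_5end and -0.53 to -0.0811 for L1P1_orf2 in SETDB1 cells, and from 0.52 to 0.82 for L1P1_orf2 in non-targeting cells. Over both days the ratio of the 5′ end to ORF2 ranged from -0.45 to -0.27 on the plus strand, 0.31 to 0.45 on the minus strand and 0.16 to 0.28 summed, and the difference between the strands' ratios from 0.72 to 0.77. At day 4 alone the ratio ranged from -0.39 to -0.0341 on the plus strand and 0.19 to 0.47 on the minus strand.

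Over the settings, without scaling included, the numbers of features called went from 11 to 37 higher and 1 to 20 lower at day 7 (reported 21 and 18), and from 7 to 35 higher and 0 to 9 lower at day 4 (reported 11 and 6). Elements lower in minus strand share at day 7 numbered 1 relative to the typical element and 10 as reported, and those higher 10 and 3. For the difference between the days, 2 to 7 features were higher and 1 to 8 lower (reported 2 and 2). Changes over time gave 5 to 11 higher and 1 to 7 lower in SETDB1 cells (reported 8 and 1), and 0 to 7 higher and 0 to 2 lower in non-targeting cells (reported 2 and 2).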
